A study of Mus musculus with 12 samples.

Results

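Lymph node dendritic cells labelled p38a knockout (KO) were compared 2 h after the addition of Pam3CSK4 with KO cells at 0 h. The comparison rests on 4 of the 12 arrays of the series, chosen by their titles: KO replicates A and B at 2 h and KO replicates A and B at 0 h. The other arrays, used here for reference, hold KO cells at 4 h and wild-type-labelled (WT) cells at 0, 2 and 4 h, again with 2 arrays per group. In every group the cells were primary dendritic cells of C57BL/6 mice, kept in culture until treatment. Those of the 0 h groups are labelled unstimulated, and the 2 h and 4 h groups received Pam3CSK4 at a labelled dose of 1 mg/ml, a unit that could not be checked. How Mapk14 was deleted, in which cells, and the age and number of the mice are not given in the sources used here. Whether arrays A and B came from separate animals or cultures is not labelled either, so the p-values measure the spread between these arrays, which may be technical. Untreated cells at 2 h were not analysed here, so that effects of the ligand and of the hours in culture cannot be told apart.

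Pam3CSK4 is a synthetic triacylated lipopeptide that is recognised by TLR2 together with TLR1. The receptor pair signals through MyD88, IRAK kinases and TRAF6 to the IkB kinases and the p38, JNK and ERK kinases. NF-kB and AP-1 factors then switch on early genes for cytokines, chemokines and co-stimulatory molecules, and with them the inhibitors that end the signal, such as IkB proteins, A20 and dual-specificity phosphatases. p38a, the product of Mapk14, acts in part through the kinase MK2 on mRNAs with AU-rich elements, among them those of Tnf and Il6. A dendritic cell that matures in this way gains co-stimulators and CCR7 and presents antigen to T cells in the lymph node.

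Levels below are log2(signal + 16) after quantile normalization, and a change is the 2 h mean minus the 0 h mean on that scale, followed by its standard error. A gene was called at an adjusted p under 0.05 in a limma fit over 12791 genes. Arrays of the same group correlated across genes with r of 0.9896 (0 h) and 0.9865 (2 h), and each of the 4 arrays correlated less with any array of another group. Deposited signals were brightest on KO 0 h replicate A, whose trimmed mean was 1.58 times that of replicate B and 1.79 times the lowest of the 4, and normalization makes every change relative to the majority of genes. The ratio of 3' to 5' GAPDH probe sets was 0.8117 and 0.9379 at 0 h, against 0.8479 and 0.9221 at 2 h, so the ranges of the 2 times overlapped.

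The dendritic cell label was set against marker genes. The chemokine receptor gene Ccr7 measured 12.83 and 12.88 at 0 h, then 12.69 and 12.65 at 2 h; its change of -0.18 was called (adjusted p = 0.025), the call was lost on leaving out any of the 4 arrays, and the sign turned with trimmed-mean scaling. In the same list, Fscn1, whose product bundles actin in mature dendritic cells, measured 13.31 and 13.31 at 0 h, then 13.43 and 13.35 at 2 h. Flt3, the receptor for a dendritic cell growth factor, measured 10.24 and 10.06 at 0 h, then 10.02 and 9.80 at 2 h. Zbtb46, a factor of conventional dendritic cells, measured 8.73 and 8.998 at 0 h, then 9.28 and 9.20 at 2 h. Itgax, another defining gene of the dendritic cell list, measured only 7.389 and 7.5 at 0 h, then 7.351 and 7.415 at 2 h. Cd207, which marks Langerhans cells, lay near the detection filter of 4.734, with 5.13 and 5.35 at 0 h, then 5.16 and 4.83 at 2 h. Xcr1 and Cd209a of the dendritic cell list also lay near it, the first at 4.76 and 4.8 at 0 h, then 5.054 and 5.041 at 2 h. Il4i1 of the migratory list did not pass the filter. Of plasmacytoid dendritic cell genes, Siglech measured 8.75 and 8.83 at 0 h, then 8.93 and 8.75 at 2 h, and Bst2, which other cells also make, 11.38 and 11.38 at 0 h, then 11.25 and 11.32 at 2 h. Genes of other cells were detected too. Of T cell genes, Cd3d measured 8.64 and 8.46 at 0 h, then 8.35 and 8.33 at 2 h, and Cd3e only 5.55 and 5.66 at 0 h, then 4.82 and 5.74 at 2 h. Of B cell genes, Ms4a1 measured 7.74 and 8.05 at 0 h, then 8.002 and 8.13 at 2 h, and Cd79a only 5.58 and 5.59 at 0 h, then 5.78 and 5.61 at 2 h. The NK cell gene Gzma measured 8.58 and 8.57 at 0 h, then 8.94 and 9.21 at 2 h, and the macrophage gene Csf1r measured 9.23 and 9.32 at 0 h, then 8.66 and 8.68 at 2 h. Of epithelial genes, Cdh1, which Langerhans cells also make, measured 10.80 and 10.71 at 0 h, then 10.86 and 11.05 at 2 h. The keratin genes were split. Krt8 was high, with 11.83 and 11.77 at 0 h, then 11.82 and 12 at 2 h. So was Krt18, with 12.09 and 12.01 at 0 h, then 12.1 and 12.27 at 2 h. Krt14 was low, with 6.22 and 5.97 at 0 h, then 6.28 and 6.29 at 2 h. Krt5 was still lower, with 5.96 and 5.62 at 0 h, then 5.59 and 5.5 at 2 h. The mature dendritic cell markers Ccr7 and Fscn1 were thus high at both times, while Itgax, Cd207 and Il4i1 measured lower. Transcripts of plasmacytoid dendritic, T, B, NK, macrophage, epithelial, stroma and endothelium, plasma cell and mast cell lists were detected beside those of dendritic cells.

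Mapk14, the gene named in the genotype label, measured 8.37 and 8.37 at 0 h, then 8.05 and 8.07 at 2 h. The 2 h arrays lay below the 0 h arrays, but the change of -0.31 ± 0.13 was not called (adjusted p = 0.12); on the deposited scale it was -0.78 (adjusted p = 0.0206). Of its 6 probe sets, 3 passed the filter; the other two changed by 0.375 and -0.644. In the WT arrays the same probe set measured 8.41 and 8.02 at 0 h, then 7.76 and 7.44 at 2 h, a change of -0.61. The mean Mapk14 signal was thus not lower in the arrays labelled KO: at 0 h their mean differed from that of WT by 0.15 ± 0.13 (adjusted p = 0.686), and at 2 h both KO arrays lay above both WT arrays. These values do not show the loss that the label names. Where the probe sets lie relative to the deleted part is not given, so they do not check the label, and KO and WT stand here for the labels.

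At 2 h, KO cells had 1004 genes called higher (7.85% of those tested) and 1499 called lower (11.7%). The larger changes were mainly increases: 207 genes rose and 88 fell at least 2-fold, 31 rose and 6 fell at least 4-fold, and 8 rose and 0 fell at least 8-fold. At an unadjusted p under 0.05, 4000 genes differed. All 2503 called genes had arrays that did not overlap between the times, against 56.9% of all tested genes. With 2 arrays per group a call nearly requires this, so the separation adds nothing to a call, here or for single genes below. The median change over all genes was -0.0582. It was -0.409 on the deposited scale, on which 195 genes were called higher and 3217 lower; the share of increases among the calls was 40.1% as reported and 5.72% there. Leaving out KO 0 h replicate A lowered the number of genes called lower to 805, and leaving out KO 2 h replicate B lowered it to 973.

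**Figure D1:**
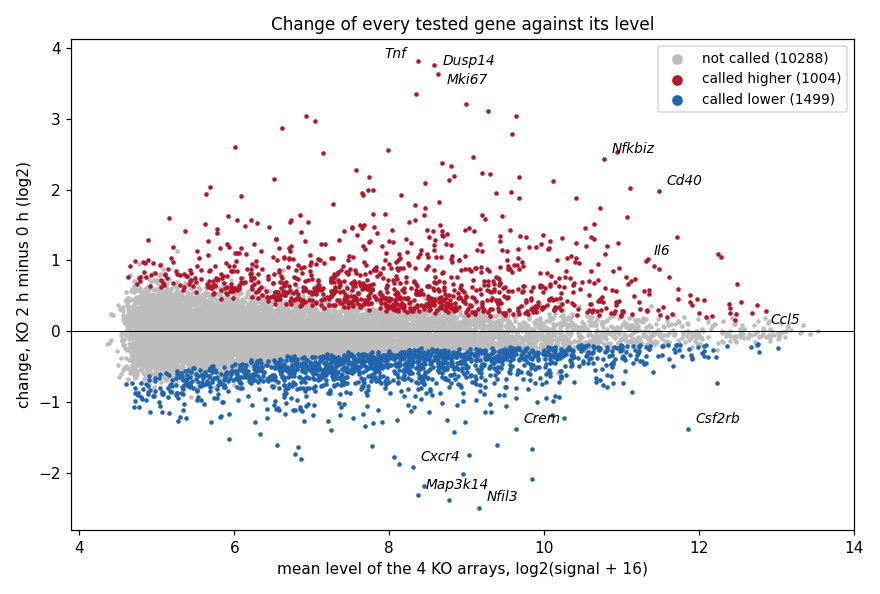
Change of every tested gene from 0 h to 2 h in KO cells (vertical axis, log2) against its mean level on the 4 KO arrays (horizontal axis, log2(signal + 16)); each point is a gene, coloured by its call. The called genes comprise 1004 higher and 1499 lower, and the changes above 3 log2 units all point upwards, led by Tnf, Dusp14 and Mki67.

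The largest increase was that of Tnf, the gene of the inflammatory cytokine tumour necrosis factor, which measured 6.58 and 6.36 at 0 h, then 10.23 and 10.34 at 2 h. Its 2 h arrays lay far above its 0 h arrays, a rise of 3.82 ± 0.13 or 14.1-fold (limma, adjusted p = 1.1e-11). Dusp14, which encodes a dual-specificity phosphatase of the MAP kinase group, measured 6.74 and 6.65 at 0 h, then 10.502 and 10.42 at 2 h, and rose by 3.76 ± 0.083 (adjusted p = 9.1e-14). Mki67, the gene of the proliferation antigen Ki-67, went from 6.84 and 6.78 to 10.42 and 10.46, a rise of 3.63 ± 0.086 (adjusted p = 1.9e-13). No other probe set of Mki67 passed the filter. Of 42 tested genes of the mitosis list 5 were called higher (11.9%) and 3 lower (7.14%), near the shares over all genes. Top2a changed by -0.30 and Cdk1 by 0.26, neither called. Without KO 0 h replicate B the change of Top2a was -0.53, with an adjusted p of 0.0473. Ampd3, a deaminase that turns AMP into IMP, rose by 3.35 ± 0.1 from 6.78 and 6.56 at 0 h to 10.08 and 9.96 at 2 h (adjusted p = 2.4e-12). The rule that chose the 20 largest changes in each direction requires arrays that do not overlap, so their separation is no finding.

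Several of the next genes act on T cells. Tnfsf9, the ligand of 4-1BB, measured 7.43 and 7.35 at 0 h, then 10.61 and 10.61 at 2 h, and Cd70, the ligand of CD27, measured 8.37 and 7.86 at 0 h, then 11.21 and 11.10 at 2 h. They rose by 3.22 ± 0.089 (adjusted p = 1.0e-12) and 3.04 ± 0.12 (adjusted p = 8.8e-11). Ebi3, the subunit that interleukin-27 and interleukin-35 share, measured 7.69 and 7.74 at 0 h, then 10.84 and 10.82 at 2 h, and rose by 3.11 ± 0.066 (adjusted p = 9.1e-14). The Notch ligand gene Dll4 went from 5.39 and 5.43 to 8.46 and 8.44, and that of another Notch ligand, Jag1, from 8.21 and 8.17 to 11.01 and 10.94. The rises were 3.04 ± 0.13 and 2.79 ± 0.074 (adjusted p = 1.2e-10 and 7.8e-13), and the other probe sets of both genes that passed the filter moved the same way. Il1a, which encodes interleukin-1 alpha, measured 5.56 and 5.56 at 0 h, then 8.68 and 8.39 at 2 h, a rise of 2.97 ± 0.14 (adjusted p = 7.0e-10). Elobl, at 4.75 and 4.68 at 0 h, then 7.36 and 7.27 at 2 h, and Phlda2, a gene of the pleckstrin homology-like family at 4.99 and 5.37 at 0 h, then 8.09 and 8.02 at 2 h, were also among the highest; the 0 h mean of Elobl lay below the filter, and its 2 h mean 2.58 above it.

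The largest decreases fell in genes of several kinds. Nfil3 and Map3k14, described with their families, were among the 3 largest. Flrt3, a membrane protein gene, measured 9.96 and 9.98 at 0 h, then 7.64 and 7.53 at 2 h, and fell by 2.38 ± 0.084 (adjusted p = 1.7e-11). Dnah2, which encodes a dynein heavy chain, measured 10.85 and 10.94 at 0 h, then 8.77 and 8.82 at 2 h, and fell by 2.10 ± 0.099, although its other probe set above the filter moved the opposite way. Mxd1, an antagonist of MYC, measured 10.69 and 10.66 at 0 h, then 9.02 and 9.01 at 2 h, and fell by 1.66 ± 0.067 (adjusted p = 8.8e-11). Adam19, a membrane metalloprotease gene, fell by 1.75 ± 0.097, the activity-regulated gene Arc by 1.63 ± 0.14 and the nuclear receptor corepressor gene Nrip1 by 1.42 ± 0.085. Fgfbp3, Ndnf, Purg, Ears2, Gins3, Trim7 and Klhl8 fell by 1.53 to 2.02.

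**Figure D2:**
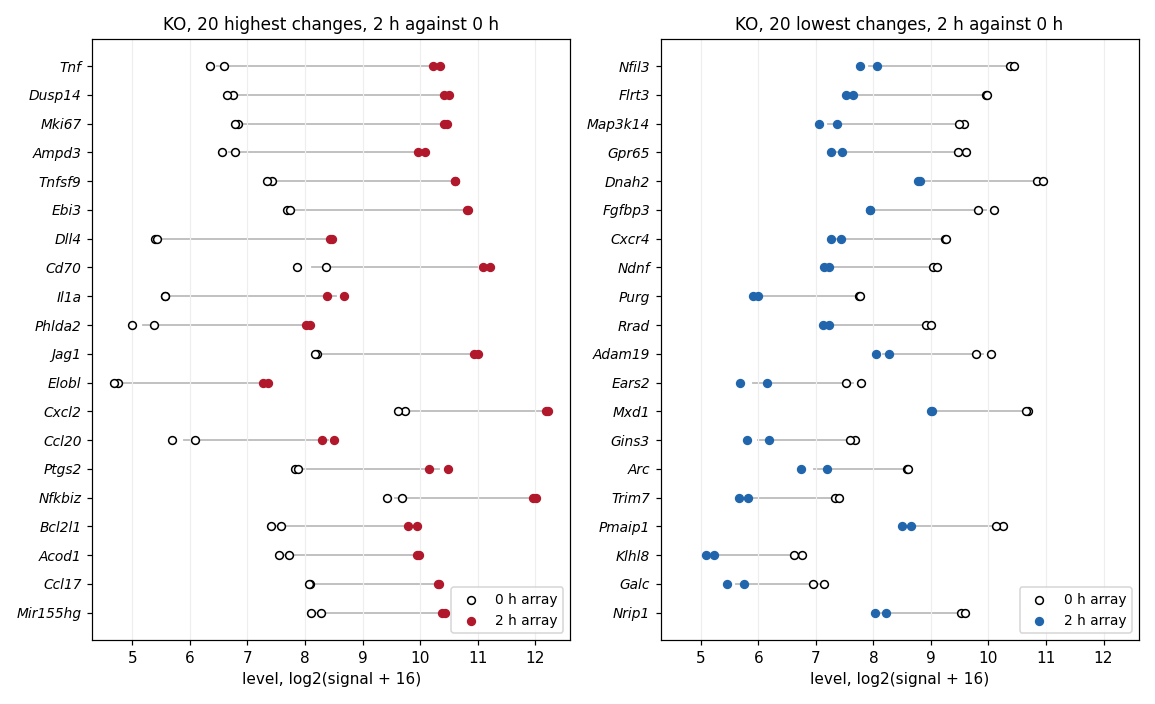
Levels (horizontal axis, log2(signal + 16)) of the 20 genes with the largest increases (left) and the 20 with the largest decreases (right) in KO cells; open circles are the 2 arrays at 0 h, filled circles the 2 arrays at 2 h. The circles of the 2 times do not overlap because the genes were chosen so: Tnf moves from 6.58 and 6.36 to 10.23 and 10.34, and Nfil3 from 10.37 and 10.45 to 7.77 and 8.07.

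To show the DNA at the start of such genes, promoter windows were taken from RefSeq (build GRCm38.p6), each from 250 bases before to 50 bases after the start of transcription. A window was found for 17 of the 20 genes with the largest increases (21 windows in all), and each was searched on both strands for the kB motif, the AP-1 motif TGANTCA and the CRE motif TGACGTCA. A kB match was found in 5 of the genes (Ebi3, Dll4, Cxcl2, Ccl20 and Bcl2l1) and an AP-1 match in 2 others (Ampd3 and Il1a), each in 1 window, and a CRE match in 0. Counted by window, 7 of the 21 held a match. Over all 32851 windows the shares with a match were 8.46%, 7.81% and 1.79%, and 17.3% for any of the 3 motifs. Over the 13147 windows of tested genes they were 10.4%, 5.72% and 2.84%, and 18% for any. A match is a string of letters in this window and shows no binding. The 4 windows of highest rank with a match are given because they are the starts of genes that the comparison turns on, 5′ to 3′ along the gene, with the matches in capitals. Ampd3 is shown at chr7:110772354-110772653 on the plus strand (window 2 of 3), Ebi3 at chr17:55952373-55952672 on the plus strand, Dll4 at chr2:119325534-119325833 on the plus strand and Il1a at chr2:129309923-129310222 on the minus strand.
Ampd3: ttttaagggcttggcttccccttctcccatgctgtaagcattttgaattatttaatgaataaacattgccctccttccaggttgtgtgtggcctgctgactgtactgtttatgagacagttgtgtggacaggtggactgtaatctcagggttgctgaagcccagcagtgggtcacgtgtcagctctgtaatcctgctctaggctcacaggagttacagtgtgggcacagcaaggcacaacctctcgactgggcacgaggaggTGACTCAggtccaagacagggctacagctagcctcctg
Ebi3: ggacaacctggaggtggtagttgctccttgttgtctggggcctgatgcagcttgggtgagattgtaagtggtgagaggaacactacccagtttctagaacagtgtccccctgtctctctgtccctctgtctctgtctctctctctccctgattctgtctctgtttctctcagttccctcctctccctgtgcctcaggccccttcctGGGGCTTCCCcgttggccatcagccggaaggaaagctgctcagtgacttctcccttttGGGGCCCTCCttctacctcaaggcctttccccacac
Dll4: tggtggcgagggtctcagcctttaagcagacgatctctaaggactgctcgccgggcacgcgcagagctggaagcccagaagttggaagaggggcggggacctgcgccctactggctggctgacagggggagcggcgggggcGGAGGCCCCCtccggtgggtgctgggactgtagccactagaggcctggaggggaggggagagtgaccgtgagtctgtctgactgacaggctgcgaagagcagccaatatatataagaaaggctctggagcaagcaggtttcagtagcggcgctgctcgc
Il1a: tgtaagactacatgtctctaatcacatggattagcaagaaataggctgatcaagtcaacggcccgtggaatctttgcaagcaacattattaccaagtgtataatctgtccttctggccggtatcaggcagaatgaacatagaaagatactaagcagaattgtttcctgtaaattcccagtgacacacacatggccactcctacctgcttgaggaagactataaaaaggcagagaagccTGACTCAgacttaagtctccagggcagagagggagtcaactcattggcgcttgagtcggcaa
In Ebi3 the kB matches begin at bases -44 and 15 counted from the start, and in Dll4 at base -109. The AP-1 match begins at base 13 in Ampd3 and at base -12 in Il1a.

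The host transcript of the microRNA miR-155, Mir155hg, measured 8.29 and 8.10 at 0 h, then 10.38 and 10.43 at 2 h. Both 2 h arrays lay above the 0 h arrays, and the rise was 2.22 ± 0.091 (limma, adjusted p = 1.1e-10). The probe set reads the host transcript, not the mature microRNAs, whose RefSeq sequences lie on chromosome 16 (GRCm38.p6, plus strand) at 84714143 to 84714165 for the 5p arm and 84714182 to 84714202 for the 3p arm. They are given since miR-155 is a known regulator in activated dendritic cells, with the seed, bases 2 to 8, in capitals; the arms have different seeds.
mmu-miR-155-5p: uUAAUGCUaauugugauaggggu
mmu-miR-155-3p: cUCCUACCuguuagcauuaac

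Among the receptors, that of the ligand rose itself. Tlr2 measured 7.57 and 7.25 at 0 h, then 8.43 and 8.59 at 2 h, and Cd14, a co-receptor that hands lipids to TLRs, measured 7.18 and 7.12 at 0 h, then 8.47 and 8.60 at 2 h. The arrays of the 2 times were apart in both genes, with rises of 1.10 ± 0.12 (adjusted p = 7.7e-06) and 1.38 ± 0.098 (adjusted p = 4.9e-08). On the deposited scale the rise of Tlr2 was 0.60 and not called (adjusted p = 0.0728). Tlr1, the partner of TLR2, rose by 0.46 ± 0.11, but its adjusted p of 0.0090 became 0.0872 without KO 0 h replicate B and 0.0586 without KO 2 h replicate A, and its sign turned on the deposited scale. Tlr6 changed by 0.27 ± 0.18 and was not called. Tlr13, a sensor of bacterial RNA, fell by 0.54 ± 0.11 (adjusted p = 0.0032). In all, 3 of 17 tested TLR genes were called higher and 2 lower (1 and 3 on the deposited scale). The shares were 17.6% and 11.8%, beside 7.85% and 11.7% over all genes. Of 19 adaptors and kinases, 6 were called higher and 1 lower, with a median change of 0.128; on the deposited scale 0 were called higher and 4 lower. They include the adaptor gene Myd88, which measured 8.39 and 8.58 at 0 h, then 8.87 and 8.97 at 2 h (a rise of 0.43 ± 0.088, with the sign turned on the deposited scale), and the kinase gene Tbk1, which measured 9.80 and 9.73 at 0 h, then 10.44 and 10.35 at 2 h (a rise of 0.63 ± 0.071). Sigirr, an inhibitory receptor of this family, was the member that fell, by 0.65 ± 0.15 (adjusted p = 0.0051).

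Of the p38 module, 4 of 19 tested genes were called higher (21.1%) and 1 lower (5.26%), and the median change was 0.064. Over all genes the shares were 7.85% and 11.7%. On the deposited scale the counts of the module were 0 and 3 and its median -0.382. Mapkapk2, which encodes the p38 substrate kinase MK2, measured 7.78 and 7.92 at 0 h, then 8.43 and 8.31 at 2 h, and rose by 0.52 ± 0.11 (adjusted p = 0.0032). The other p38 genes were not called: Mapk11 changed by 0.27 ± 0.20 and Mapk13 by -0.26 ± 0.21. In the ERK and JNK modules 3 of 19 rose and 3 fell (15.8% each), beside 7.85% and 11.7% over all genes. The strongest member was Map3k8, whose product TPL2 activates the ERK pathway downstream of TLRs: it measured 8.08 and 7.74 at 0 h, then 9.46 and 9.35 at 2 h, and rose by 1.498 ± 0.13 (adjusted p = 5.4e-07). Map2k1, which encodes the ERK kinase MEK1, rose by 0.63 ± 0.075.

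Feedback genes of the MAP kinases split by member. Of 23 tested phosphatase and Sprouty-family genes, 6 were called higher and 1 lower (3 and 3 on the deposited scale). Beside Dusp14, Dusp2 measured 8.60 and 8.88 at 0 h, then 10.69 and 10.55 at 2 h, and rose by 1.88 ± 0.097, and Spred2, an inhibitor of the RAS to ERK step, measured 7.02 and 6.84 at 0 h, then 8.48 and 8.37 at 2 h, and rose by 1.499 ± 0.11. Dusp1, the classic phosphatase of p38, measured 10.76 and 10.85 at 0 h, then 10.75 and 10.74 at 2 h; its change of -0.06 ± 0.067 was not called (adjusted p = 0.57). Dusp5, a nuclear phosphatase of ERK, was the member that fell, by 0.70 ± 0.094. Of the proteins that bind AU-rich elements or degrade mRNA, 3 of 32 rose (9.38%) and 6 fell (18.8%), beside 7.85% and 11.7% over all genes. Zfp36, which encodes tristetraprolin, measured 10.49 and 10.51 at 0 h, then 9.51 and 9.60 at 2 h, and fell by 0.94 ± 0.073 (adjusted p = 1.4e-07), and Zfp36l1 fell by 0.34 ± 0.070, not called with trimmed-mean scaling (-0.23, adjusted p = 0.0874). In contrast Zc3h12a, the RNase regnase-1, went from 6.94 and 6.45 to 8.46 and 8.79, a rise of 1.93 ± 0.17 (adjusted p = 7.2e-07).

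In the NF-kB group, 7 of 11 tested genes were called higher and 1 lower, with a median change of 0.371 beside -0.0582 over all genes. On the deposited scale 2 were called higher and 1 lower. Of the subunits that carry the transcription activity, Rela measured 10.19 and 10.21 at 0 h, then 10.31 and 10.32 at 2 h, and Rel 9.07 and 9.20 at 0 h, then 9.10 and 9.01 at 2 h; neither was called, while Nfkb2, the p100 precursor, rose by 0.60 ± 0.087. Relb, another such subunit, measured 11 and 11.14 at 0 h, then 10.85 and 10.8 at 2 h, and its change of -0.242 was the lowest of the group. The largest increase of the group was that of a cofactor. Nfkbiz, which encodes the nuclear cofactor IkB-zeta, measured 9.69 and 9.42 at 0 h, then 11.96 and 12.01 at 2 h, and rose by 2.43 ± 0.12 (adjusted p = 8.0e-10). Nfkbid rose by 1.34 ± 0.17, Nfkbib by 0.88 ± 0.089, Bcl3 by 0.67 ± 0.10 and Nfkbia, the IkB-alpha gene, by 0.37 ± 0.072.

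Of 25 regulators of the A20, TRAF and cIAP group, 8 were called higher and 2 lower (3 and 8 on the deposited scale). Tnfaip3, the gene of the deubiquitinase A20, measured 9.85 and 9.85 at 0 h, then 11.63 and 11.54 at 2 h, and rose by 1.74 ± 0.088 (adjusted p = 1.0e-09), and its partner Tnip1 rose by 1.03 ± 0.064. The largest decrease was that of Map3k14, which encodes NIK, the kinase of the non-canonical NF-kB pathway. Map3k14 measured 9.58 and 9.49 at 0 h, then 7.37 and 7.06 at 2 h; the 2 h arrays lay below the 0 h arrays, and the gene fell by 2.32 ± 0.11 (adjusted p = 7.0e-10). Cyld, another deubiquitinase, fell by 0.43 ± 0.084.

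The AP-1 and CREB families had 13 of 29 tested genes called higher and 6 lower; on the deposited scale 2 were higher and 6 lower. Jdp2, a repressor of AP-1, measured 7.76 and 7.79 at 0 h, then 9.26 and 9.16 at 2 h, and rose by 1.44 ± 0.078 (adjusted p = 2.2e-09), although its other probe set above the filter moved the opposite way. Maff rose by 1.25 ± 0.11 and Mafg by 0.98 ± 0.11, both small Maf factors. Of the FOS-like subunits Fosl2 rose by 0.58 ± 0.096, and Fosl1 changed by 0.01 ± 0.14, not called. Nfil3, a bZIP repressor needed for several lymphoid lineages, had the largest decrease of all named genes. It measured 10.37 and 10.45 at 0 h, then 7.77 and 8.07 at 2 h, and fell by 2.495 ± 0.12 (adjusted p = 4.6e-10). Crem, the cAMP-responsive modulator, measured 10.34 and 10.31 at 0 h, then 8.93 and 8.95 at 2 h, and fell by 1.39 ± 0.089, and Batf3, a factor of cross-presenting dendritic cells, fell by 0.79 ± 0.079. Of 32 immediate-early and Kruppel-like factor genes, 11 rose and 4 fell (2 and 8 on the deposited scale), among them Nr4a1, which rose by 1.26 ± 0.1, Myc by 1.04 ± 0.092 and Ier3 by 0.77 ± 0.062. Klf2 and Klf6 were not called, with changes of -0.28 ± 0.15 and -0.10 ± 0.074.

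**Figure D3:**
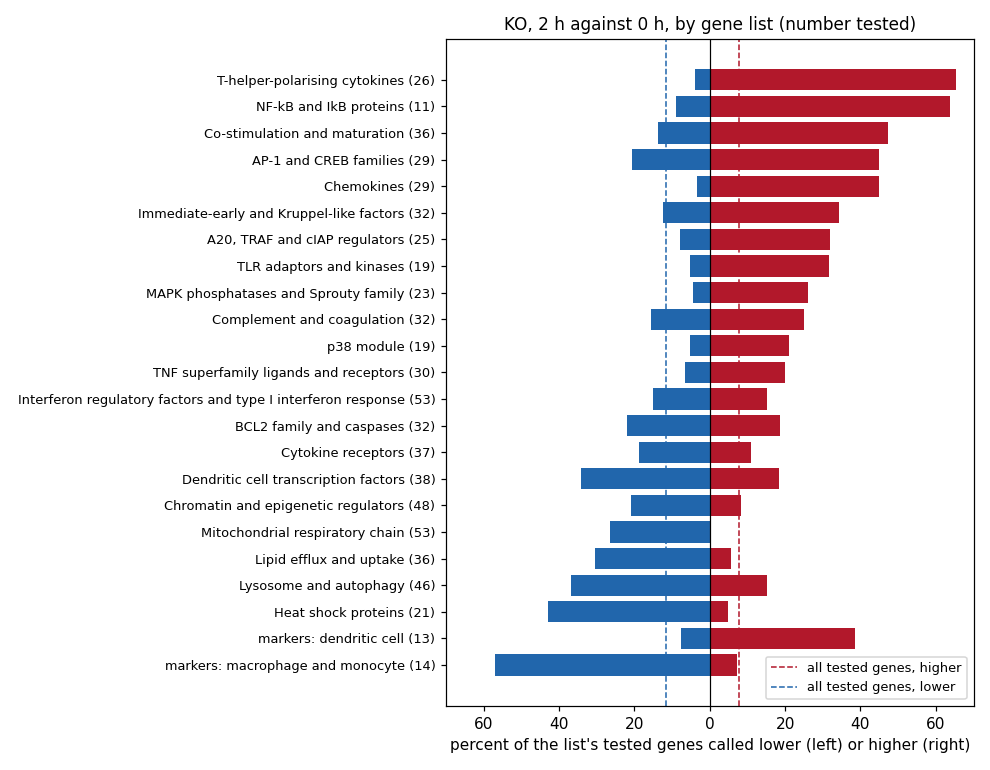
Percentage of each gene list's tested members that were called lower (left of 0) or higher (right of 0) at 2 h in KO cells; the number tested stands in brackets and dashed lines give the percentages over all tested genes, 7.85% higher and 11.7% lower. The cytokine list has 17 of 26 genes called higher and the macrophage marker list 8 of 14 called lower.

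A large share of the tested cytokine genes was called higher. Of 26 tested genes on the list of T-helper-polarising cytokines, which also holds growth factors, 17 were called higher and 1 lower, with a median change of 1.09; on the deposited scale the counts were 14 and 1. Il12b, the p40 chain of interleukin-12 and interleukin-23, measured 9.33 and 9.60 at 0 h, then 11.36 and 11.33 at 2 h, and rose by 1.88 ± 0.18 (adjusted p = 2.0e-06). The partner chains were low at 0 h: Il12a measured 4.38 and 4.34 at 0 h, then 5.78 and 6.13 at 2 h, and Il23a measured 4.75 and 4.57 at 0 h, then 6.6 and 6.79 at 2 h. Both were called higher, but their 0 h means lay below the filter, so the rise is given only as a bound: the 2 h mean of Il12a lay 1.22 above the filter level and that of Il23a 1.96. Il6 measured 10.81 and 10.82 at 0 h, then 11.79 and 11.83 at 2 h, and rose by 0.996 ± 0.060 (adjusted p = 7.3e-09). Il10, which encodes an anti-inflammatory cytokine, measured 5.46 and 4.98 at 0 h, then 6.496 and 6.30 at 2 h, and rose by 1.18 ± 0.18 (adjusted p = 0.00025).

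Il1b was already at 10.63 and 10.54 at 0 h and reached 10.94 and 10.82 at 2 h. Its rise of 0.29 ± 0.083 had an adjusted p of 0.021, which became 0.134 without KO 0 h replicate B and 0.164 without KO 2 h replicate A, and its sign turned on the deposited scale. Among the growth factors of the list, Csf2 rose by 1.99 ± 0.11, Csf3 by 1.92 ± 0.12 and Csf1 by 1.42 ± 0.11. Lif, of the interleukin-6 family, rose by 1.74 ± 0.097, whereas Osm, of the same family, measured 7.81 and 8.11 at 0 h, then 6.79 and 6.76 at 2 h, and fell by 1.19 ± 0.12 (adjusted p = 3.6e-06). Ifng, best known from lymphocytes, measured 6.39 and 6.35 at 0 h, then 8.02 and 8.31 at 2 h, a rise of 1.80 ± 0.11 (adjusted p = 6.8e-09). Of 10 tested NK cell genes 1 was called higher and 1 lower: Gzma, the granzyme A gene, rose by 0.50 ± 0.097 (adjusted p = 0.0016; not called on the deposited scale, adjusted p = 0.943), while the receptor gene Ncr1 changed by -0.16 ± 0.19, not called. The NK shares of 10% higher and 10% lower lie near those over all genes, 7.85% and 11.7%. The summed signal of the NK list was 2972 and 2681, then 2939 and 2985. The T cell genes Cd3d and Cd3e changed by -0.21 ± 0.10 and -0.32 ± 0.26, neither called, although Cd3e changed by -0.79 (adjusted p = 0.05) without KO 2 h replicate B. The part of these cells in the rise of Ifng was not tested. Ifnb1 stayed low, with 5.11 and 4.70 at 0 h, then 5.28 and 5.38 at 2 h, and was not called.

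Among 29 tested chemokine genes, 13 were called higher and 1 lower (7 and 3 on the deposited scale), and the median change was 0.353. Among those that attract neutrophils were Cxcl2, at 9.73 and 9.62 at 0 h, then 12.23 and 12.19 at 2 h, and Cxcl1, at 11.59 and 11.81 at 0 h, then 12.79 and 12.78 at 2 h. They rose by 2.53 ± 0.071 and 1.09 ± 0.075, without overlap of the arrays. Ccl20, the ligand of CCR6, rose by 2.51 ± 0.14 from 5.69 and 6.09. Ccl17 and Ccl22 encode ligands of CCR4 that dendritic cells make. Ccl17 measured 8.08 and 8.08 at 0 h, then 10.33 and 10.31 at 2 h, and Ccl22 measured 11.85 and 11.67 at 0 h, then 12.86 and 12.77 at 2 h. Their rises were 2.24 ± 0.074 and 1.05 ± 0.068 (adjusted p = 9.2e-12 and 1.6e-08). Ccl3 rose by 1.96 ± 0.097 and Ccl4 by 1.42 ± 0.091, while Ccl5, at 12.82 and 12.83 at 0 h, then 12.84 and 12.84 at 2 h, was not called. Cxcl16 was the member that fell, by 0.42 ± 0.074.

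Co-stimulation and maturation genes had 17 of 36 tested members called higher and 5 lower (9 and 6 on the deposited scale), with a median change of 0.193. Cd40 measured 10.44 and 10.54 at 0 h, then 12.46 and 12.48 at 2 h. Cd80 measured 9.52 and 9.41 at 0 h, then 10.70 and 10.55 at 2 h. Cd86 measured 10.40 and 10.27 at 0 h, then 11.56 and 11.61 at 2 h. The 3 genes encode molecules with which a dendritic cell engages T cells, and they rose by 1.98 ± 0.073, 1.16 ± 0.073 and 1.25 ± 0.062 (adjusted p = 3.6e-11, 1.2e-08 and 8.0e-10). Icam1, an adhesion molecule, rose by 1.32 ± 0.066 and Pvr, the ligand of CD226 and TIGIT, by 2.13 ± 0.087. Cd83, a maturation marker, measured 12.36 and 12.47 at 0 h, then 12.58 and 12.45 at 2 h, and was not called. Pdcd1lg2, which encodes the inhibitory ligand PD-L2, measured 9.10 and 9.09 at 0 h, then 8.20 and 8.25 at 2 h, and fell by 0.87 ± 0.085 (adjusted p = 1.9e-06). Of 30 tested TNF superfamily genes 6 rose and 2 fell, Tnf, Tnfsf9, Cd70 and Cd40 among those that rose. Tnfsf4, the ligand of OX40, rose by 1.57 ± 0.12 and Tnfrsf13c, the BAFF receptor gene, by 1.24 ± 0.16.

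Genes for receptors moved in both directions. Of 30 migration receptors, 7 were called higher (23.3%) and 6 lower (20%), beside 7.85% and 11.7% over all genes. Gpr183, the oxysterol receptor that positions cells in lymphoid tissue, measured 8.48 and 8.33 at 0 h, then 10.48 and 10.24 at 2 h, and rose by 1.95 ± 0.089. Cxcr4, the receptor of CXCL12, measured 9.25 and 9.27 at 0 h, then 7.43 and 7.26 at 2 h, and fell by 1.92 ± 0.094 (adjusted p = 7.0e-10). Gpr65, a proton-sensing receptor, measured 9.62 and 9.47 at 0 h, then 7.26 and 7.45 at 2 h, and fell by 2.19 ± 0.14. Of 37 cytokine receptors, 4 rose (10.8%) and 7 fell (18.9%), beside 7.85% and 11.7% over all genes. The decoy receptor gene Il1r2 rose by 2.19 ± 0.098 from 8.68 and 8.48. Csf2rb, the shared beta chain of the GM-CSF receptor, measured 12.59 and 12.51 at 0 h, then 11.15 and 11.17 at 2 h, and fell by 1.39 ± 0.065 (adjusted p = 4.4e-10); Csf2rb2 fell by 0.73 ± 0.061. Il7r fell by 1.19 ± 0.075 from 10.71 and 10.67. Of the downstream genes, Socs3, a feedback inhibitor of cytokine signalling, rose by 1.51 ± 0.11 and Stat5a by 1.46 ± 0.090.

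Interferon-related genes and dendritic cell factors were mixed as well. Of 53 interferon regulatory and response genes, 8 rose and 8 fell (15.1% each), beside 7.85% and 11.7% over all genes. Irf4, a factor of migratory dendritic cells, measured 7.69 and 7.80 at 0 h, then 9.98 and 9.90 at 2 h, and rose by 2.19 ± 0.098 (adjusted p = 2.8e-10), and Irf1 rose by 0.51 ± 0.081. Among the response genes Oasl1 fell by 0.72 ± 0.089, Ifit3 by 0.49 ± 0.093 and Trim25 by 0.996 ± 0.092. Of 38 dendritic cell transcription factors, 7 rose and 13 fell (median -0.135), against 2 and 17 on the deposited scale. Besides Nfil3 and Batf3, the aryl hydrocarbon receptor gene Ahr fell by 0.68 ± 0.099, with another probe set moving the opposite way, and Id3 fell by 0.54 ± 0.10. Of 19 genes of MHC class II and antigen loading 1 rose (5.26%) and 5 fell (26.3%), beside 7.85% and 11.7% over all genes. Ciita had the highest change of the list, 0.632, from 5.846 and 5.991 at 0 h to 6.507 and 6.593 at 2 h. H2-Eb1 measured 12.35 and 12.26 at 0 h, then 12.32 and 12.25 at 2 h, and was not called. Nor was Cd74, with 11.71 and 11.65 at 0 h, then 11.83 and 11.79 at 2 h. Marchf1, the ligase that removes MHC class II from the surface, measured 6.56 and 6.29 at 0 h, then 5.25 and 5.21 at 2 h, and fell by 1.19 ± 0.18 (adjusted p = 0.00018).

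Genes of survival and death showed a pair of large opposite changes. Bcl2l1, which encodes the survival protein BCL-XL, measured 7.58 and 7.40 at 0 h, then 9.95 and 9.79 at 2 h, and rose by 2.38 ± 0.091 (adjusted p = 4.9e-11). Pmaip1, which encodes the pro-apoptotic protein NOXA, measured 10.26 and 10.13 at 0 h, then 8.66 and 8.502 at 2 h, and fell by 1.61 ± 0.076 (adjusted p = 4.8e-10). Cflar, an inhibitor of caspase-8, rose by 1.06 ± 0.066 and Casp9 fell by 1.12 ± 0.13, whereas Bcl2l11, the gene of the pro-apoptotic BIM, rose by 0.77 ± 0.078. Over the list, 6 of 32 genes were called higher (18.8%) and 7 lower (21.9%), beside 7.85% and 11.7% over all genes.

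Other increases lay in metabolism and lipid mediators. Acod1, the enzyme that makes itaconate, measured 7.72 and 7.55 at 0 h, then 9.97 and 9.95 at 2 h, and rose by 2.33 ± 0.13 (adjusted p = 2.1e-09). Ptgs2, which encodes cyclooxygenase-2, measured 7.83 and 7.87 at 0 h, then 10.15 and 10.49 at 2 h, and rose by 2.47 ± 0.11 (limma, adjusted p = 3.8e-10). Of 28 eicosanoid genes 3 rose (10.7%) and 2 fell (7.14%), near the shares over all genes. Ptges changed by 0.03 ± 0.21, not called. Gch1, the first enzyme of tetrahydrobiopterin synthesis, rose by 1.63 ± 0.074, and Adss, an enzyme of AMP synthesis, by 1.29 ± 0.095. Adss and Ampd3 were the 2 called increases among 41 genes of purine and adenosine metabolism, in which 8 fell. Of 32 glycolysis and hypoxia genes 7 rose and 2 fell, with Slc2a6 up by 1.06 ± 0.11 and Hk2 by 0.64 ± 0.10. Rrad, a RAS-related gene, fell by 1.78 ± 0.11.

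Among catabolic genes most calls were decreases, as over all tested genes, where 40.1% of the calls were increases. The lysosome list had 37% of its genes called lower and 15.2% higher, beside 11.7% and 7.85% over all genes. Of 46 lysosome and autophagy genes, 17 were called lower and 7 higher (median -0.188), against 23 and 0 on the deposited scale. Gusb, the lysosomal beta-glucuronidase gene, measured 9.998 and 10.07 at 0 h, then 9.07 and 8.88 at 2 h, and fell by 1.06 ± 0.088 (adjusted p = 2.9e-07). Hexa, which encodes a chain of hexosaminidase, fell by 0.72 ± 0.082, Ctsd, a cathepsin gene, by 0.41 ± 0.077, and Lamp1, a lysosomal membrane protein gene, by 0.35 ± 0.057. With trimmed-mean scaling the change of Lamp1 was -0.18 and not called (adjusted p = 0.146). The autophagy receptor gene Sqstm1 went the other way, with a rise of 0.53 ± 0.087. Galc, another lysosomal hydrolase gene, is on none of the lists and was among the 20 largest decreases, from 7.15 and 6.96 to 5.46 and 5.74. Of 36 genes of lipid efflux and uptake, 11 fell and 2 rose (median -0.237), against 19 and 0 on the deposited scale. Acadm, which oxidises medium-chain fatty acids, measured 10.67 and 10.54 at 0 h, then 9.66 and 9.71 at 2 h, and fell by 0.92 ± 0.076. Lipa fell by 0.66 ± 0.098, Plin2, a lipid droplet gene, by 0.80 ± 0.14 and Lpl by 0.64 ± 0.11; Ch25h, which makes an oxysterol, rose by 0.73 ± 0.11.

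Heat shock genes had 9 of 21 members called lower and 1 higher (median -0.186), with Dnajb1, an HSP40 co-chaperone gene, at 9.18 and 9.06 at 0 h, then 8.43 and 8.55 at 2 h. It fell by 0.63 ± 0.083 (adjusted p = 5.0e-05), Chordc1 by 0.57 ± 0.083 and Hsph1 by 0.46 ± 0.092. Of 53 respiratory chain genes 14 fell and 0 rose, by small amounts: the median was -0.17, the lowest change -0.519 in the complex I gene Ndufa8, and Cox4i1 changed by -0.16 ± 0.064, not called. The number that fell was 7 with trimmed-mean scaling and 25 on the deposited scale. In the WT arrays 4 of these genes fell and 0 rose, and no gene of the list had a called difference between the responses. Of 48 chromatin regulators 10 fell and 4 rose (18 and 0 on the deposited scale); Sirt1, a deacetylase gene, measured 9.42 and 9.37 at 0 h, then 8.35 and 8.36 at 2 h, and fell by 1.04 ± 0.084, Ep300, an acetyltransferase gene, fell by 0.71 ± 0.10, and the H3K27 demethylase gene Kdm6b rose by 0.82 ± 0.11. Zinc finger genes named Zfp had 36 of 271 called lower (13.3%) and 13 higher (4.8%). Of 212 solute carrier genes 19 were called higher (8.96%) and 21 lower (9.91%), both near the shares over all genes. Relative to the median of all genes, the median of the lysosome, lipid, heat shock, respiratory chain and chromatin lists was below 0 as reported and with both other scalings.

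Most macrophage and monocyte markers fell: 8 of 14 were called lower and 1 higher, with a median of -0.422. Csf1r fell by 0.60 ± 0.092, Cd68 by 0.48 ± 0.096, and the lysozyme genes Lyz2 and Lyz1 by 0.44 ± 0.081 and 0.43 ± 0.081. With _x_at and _s_at probe sets left out, the change of Lyz1 was -0.52 and not called (limma, adjusted p = 0.166). Vcam1, which endothelium and activated cells also make, rose by 1.34 ± 0.089. The summed signal of the 15 macrophage markers on the array was 8996 and 8680 at 0 h, against 7560 and 7318 at 2 h. In whole cultures, fewer cells of a type and less RNA per cell cannot be told apart. The same sum for 13 dendritic cell markers was 11730 and 11480 at 0 h, against 13190 and 12750 at 2 h. For 13 T cell markers it was 3213 and 3049, then 2048 and 2035, with Il7r as the single called member. For 11 B cell markers it was 2311 and 2582, then 2157 and 2277. On the WT arrays the macrophage sum was 5221 and 5241 at 0 h, then 4769 and 4337 at 2 h, below every KO array of these times. The WT dendritic cell sum was 10340 and 9263, then 11430 and 11400. The part of these sums in differences between KO and WT was not tested. In KO the macrophage marker sum was lower on both 2 h arrays, as were the lysosome genes named above, and its part in their change was not tested.

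In WT cells the same 2 times gave a response that rests on other arrays. There, 1079 genes were called higher (8.44%) and 1467 lower (11.5%). Of these increases 755 were also called higher in KO, which is 75.2% of the KO list and 70% of the WT list. The decreases called in both numbered 943, or 62.9% of the KO list and 64.3% of the WT list. Tnf rose by 3.62 in WT and by 3.82 in KO, Il6 by 1.31 and 0.996, and Il12b by 1.45 and 1.88. For Cd40 the 2 rises were 2.28 and 1.98, for Dusp14 4.01 and 3.76. Of the genes called in KO and not in WT, 247 higher and 555 lower, 0 had a called difference between the responses.

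The difference itself was tested as the KO change minus the WT change. It was called higher for 0 genes (0%) and lower for 4 (0.0313%) by limma, with 754 genes at an unadjusted p under 0.05. Ccl6, a chemokine gene of the CCL9 cluster, measured 7.03 and 6.98 at 0 h, then 7.57 and 7.502 at 2 h in KO and 5.97 and 5.96 at 0 h, then 7.77 and 7.89 at 2 h in WT. It rose in both, by 0.53 and 1.87, and the difference was -1.34 ± 0.17 (adjusted p = 0.0046). Procr, the endothelial protein C receptor gene, measured 9.75 and 9.85 at 0 h, then 11.17 and 11.35 at 2 h in KO and 9.46 and 9.39 at 0 h, then 11.72 and 11.59 at 2 h in WT, with a difference of -0.77 ± 0.11 (adjusted p = 0.011). Col27a1, a fibrillar collagen gene, rose by 1.28 in KO and 2.28 in WT, a difference of -1.001 ± 0.14 (adjusted p = 0.014). Dnah2, a dynein heavy chain gene, measured 10.85 and 10.94 at 0 h, then 8.77 and 8.82 at 2 h in KO and 11.13 and 10.92 at 0 h, then 10.51 and 10.18 at 2 h in WT, a difference of -1.42 ± 0.14 (adjusted p = 0.00047). Its other probe set above the filter moved the opposite way in KO, and the difference was -0.35 (adjusted p = 0.862) on the mean of all its probe sets. Over all genes, the count of 4 became 2 on the deposited scale, of which only Dnah2 is among the 4 named, 0 on the mean of all probe sets and 0 with eBayes without trend. The adjusted p of Procr became 0.0716 without KO 0 h replicate B, 0.131 without KO 2 h replicate A and 0.0965 without WT 2 h replicate A. That of Col27a1 ranged from 0.0728 to 0.142 without KO 0 h replicate B, either KO 2 h array or either WT 2 h array. The count of 4 was 2 without KO 2 h replicate A or WT 2 h replicate A, and 8 without WT 0 h replicate A.

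**Figure D4:**
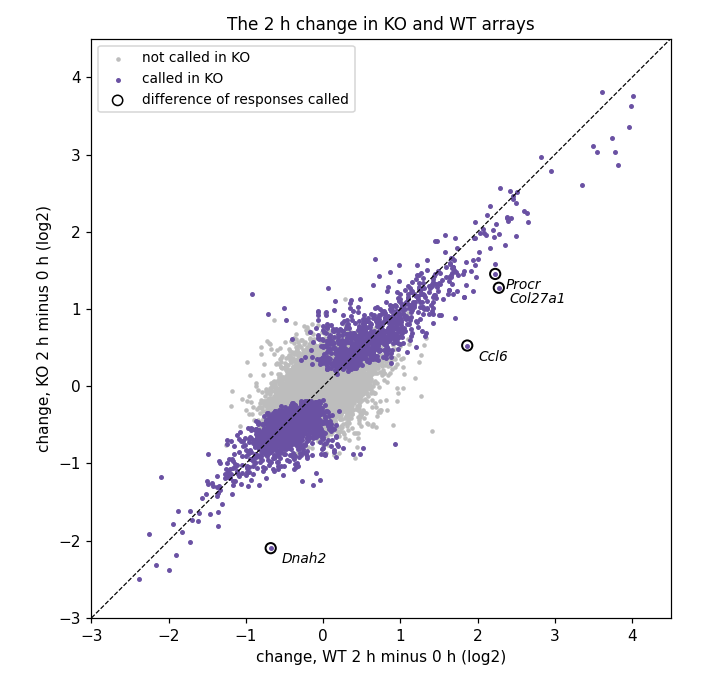
Change of each tested gene from 0 h to 2 h in KO (vertical axis, log2) against that in WT (horizontal axis, log2); the dashed line marks equal changes and circles mark the genes with a called difference. The response of Tnf lies near the line, at 3.62 and 3.82, and the 4 circled genes, Dnah2, Ccl6, Col27a1 and Procr, lie below it.

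KO arrays at 4 h show how the levels went on. Between 2 h and 4 h, 826 genes were called higher (6.46%) and 927 lower (7.25%), and 43 and 62 of these changed at least 2-fold. This comparison shares the 2 h arrays with the one above, so values are given side by side and no overlap is drawn from them. The count called higher was 533 and 456 without KO 2 h replicates A and B, and 497 and 366 without KO 4 h replicates A and B. The count called lower was 585, 553 and 539 without KO 2 h replicate A, KO 2 h replicate B and KO 4 h replicate B.

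Ifng, which had risen by 1.80 at 2 h, rose by a further 3.22 ± 0.11 to 11.35 and 11.43 at 4 h (adjusted p = 8.1e-11). Tnf stood at 9.85 and 9.80 at 4 h, a change of -0.46 ± 0.13 from 2 h (adjusted p = 0.026) whose call was lost on leaving out any of the 4 arrays compared. Dusp14 stood at 9.04 and 8.95, a change of -1.47 ± 0.083. Uba6, a ubiquitin-activating enzyme gene, rose by 2.10 ± 0.10 at 2 h and measured 7.54 and 7.57 at 4 h against 7.54 and 7.28 at 0 h. Sele, which encodes E-selectin, rose by 1.79 ± 0.11 and then changed by -1.50 ± 0.11. Both were among the 8 largest decreases of the later interval. Nfil3 and Flrt3 had fallen by 2 h and then rose by 1.63 ± 0.12 and 1.44 ± 0.084, without reaching their 0 h levels. Cxcl11, an interferon-induced chemokine gene, measured 7.99 and 7.65 at 0 h, then 7.75 and 8.17 at 2 h, not called, and 9.65 and 9.49 at 4 h, a change of 1.61 ± 0.14 (adjusted p = 2.5e-06). Ebi3 rose further, by 0.32 ± 0.066 to 11.15 and 11.14 at 4 h. On the deposited scale this change of Ebi3 was 0.59 and not called (limma, adjusted p = 0.176). Cxcr4 measured 7.54 and 7.58 at 4 h, a change of 0.21 ± 0.094 that was not called.

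**Figure D5:**
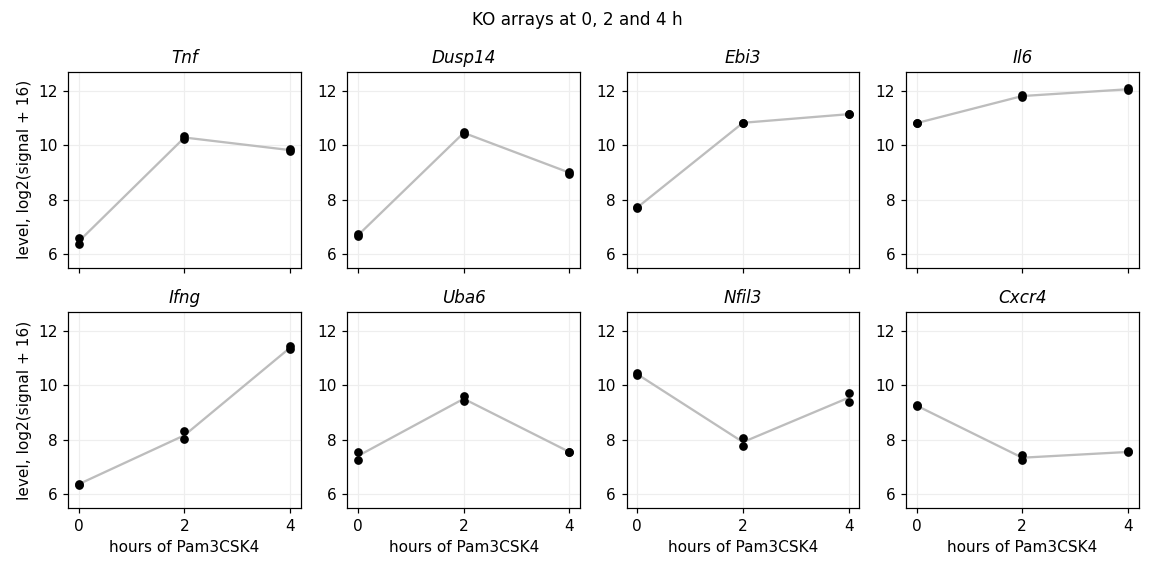
Levels of 8 genes on the KO arrays (vertical axis, log2(signal + 16)) at 0, 2 and 4 h (horizontal axis); points are arrays and lines join the group means. Tnf, Dusp14 and Uba6 are highest at 2 h, Ebi3, Il6 and Ifng at 4 h, and Nfil3 and Cxcr4 are lowest at 2 h.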

How the data were processed

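Biotin-labelled RNA of cultured dendritic cells was read on Affymetrix 3' expression arrays for mouse, per the labels' protocols. The deposited table holds linear intensity values, 1 per probe set and array, summarised with MAS5 per the submitters' processing notes; its version and scaling target are not given in the sources used here. As the authors' deposited values had no common scale between arrays, they were quantile-normalized and tested as log2(value + 16). That scale understates fold changes of low genes, and the number of arrays limits the precision.

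The platform annotation gave 1 gene symbol for 34958 of 45101 probe sets, several for 932 and none for 9211; 34754 matched RefSeq by Entrez identifier. The probe set with the highest mean stood for each of 18193 genes, of which 12791 passed a filter at the 40th percentile (4.734 log2, a signal of 10.61). A linear model of 6 group means over all 12 arrays was fitted in R 4.3.3 with the lmFit and trended eBayes functions of limma 3.58.1, two-sided, with Benjamini-Hochberg adjustment. It had 6 residual and 9.131 prior degrees of freedom, and the code was tested on simulated data. The median SD of the 2 arrays was 0.1 at 0 h and 0.105 at 2 h, and the median standard error of a change was 0.153.

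Named genes are Mapk14, the 20 highest and 20 lowest changes with arrays that do not overlap, up to 10 called differences each way, the 8 highest and 8 lowest changes after 2 h, and in each list its defining genes and up to 6 further called members each way. Clone-like names were passed over. The comparison, lists and rule were chosen with earlier results of these data known, so list counts are descriptions. The result of 1 further list is not reported here. Deviations of the lettered replicates correlated by 0.017 between KO 0 h and KO 2 h (-0.0422 to 0.105 over all pairs of groups), so the letters were not taken as pairs. Promoter and microRNA sequences are from RefSeq, build GRCm38.p6. Alternatives were other scalings, pseudocounts of 1 and 64, other filters, probe set rules, fits and thresholds, and each array left out.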

Additional observations from a re-analysis of the deposited data

Results flagged for a closer look

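The response at 2 h differed between KO and WT, by the interaction term of the limma fit, in 4 genes. The KO change minus the WT change was -1.42 in Dnah2, -1.34 in Ccl6, -1 in Col27a1 and -0.773 in Procr, on the log2 scale. All 4 differences are of changes, not of levels: in KO, Ccl6, Col27a1 and Procr rose less than in WT and Dnah2 fell more. Ccl6 and Procr started higher in KO, where both 0 h arrays lay above both WT 0 h arrays. Of 12791 tested genes, 249 were called higher and 173 lower in KO than in WT at 0 h. The part of such starting levels in the differences was not tested. The call of Dnah2 was lost on the mean of all its probe sets, and that of Procr on the deposited scale (adjusted p = 0.946). The call of Col27a1 was lost on the deposited scale (adjusted p = 0.827), on the mean of all probe sets (0.223), with a pseudocount of 64 (0.153) and with only the groups compared (0.0747). The adjusted p of Ccl6 was 0.125 on the deposited scale and 0.141 on the mean of all probe sets.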

How the results depend on the processing

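On the deposited scale the median change of all genes was -0.409, and 195 genes were called higher and 3217 lower at 2 h in KO; a log2 change of at least 1 left 207 and 88. Of 173 named genes called in that comparison, 142 kept their call on the deposited scale, 27 lost it and 4 changed sign: Il1b (-0.069), Myd88 (-0.046), Tlr1 (-0.030) and Zbtb46 (-0.092). Those that lost it were Bcl2l11, Bcl3, Ccl6, Ccr7, Ch25h, Fosl2, Gzma, Hk2, Idi1, Irf1, Kdm6b, Mafg, Map2k1, Mapkapk2, Myc, Nfkb2, Nfkbia, Nfkbib, Ppp1r15a, Sirpa, Slc2a6, Slc7a1, Sod2, Sqstm1, Tbk1, Tlr2 and Txnrd1. With trimmed-mean scaling 170 kept it, 2 lost it (Lamp1 and Zfp36l1) and Ccr7 changed sign (0.096). The difference between KO and WT was called higher for 1 gene on the deposited scale, 1 with trimmed-mean scaling and 1 at an adjusted p under 0.1, and lower for 2 on the deposited scale, 0 on the mean of all probe sets, 0 with eBayes without trend and 8 at an adjusted p under 0.1. From 2 h to 4 h, 260 genes were called higher and 43 lower on the deposited scale, and 43 and 62 changed by at least 1 log2 unit. The cause of these moves was not tested.

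Leaving out 1 array at a time gave 760 to 996 genes called higher and 805 to 1492 lower at 2 h, 0 to 2 and 2 to 8 for the difference, and 366 to 856 and 539 to 940 from 2 h to 4 h. With the replicate letter as a block the counts were 1047 and 1564 at 2 h, 0 and 6 for the difference, and 876 and 971 from 2 h to 4 h. The letters did not pair the arrays, and this block changed no call of a named gene other than 1 gained. Signal over background limits genes near the filter, and 2 arrays per group limit the rest.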

Other observations

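Genes of pattern recognition, adhesion and coagulation were called in both directions in KO cells at 2 h. Over all genes 7.85% were called higher and 11.7% lower. The shares were 15.2% and 24.2% for the C-type lectin list and 17.2% and 20.7% for the Fc receptor list. They were 25% and 15.6% for the complement list and 14.3% each way for the integrin list. Of 33 tested C-type lectin and inflammasome genes, 5 were called higher and 8 lower. Clec4e, which encodes the glycolipid receptor Mincle, measured 8.49 and 8.40 at 0 h, then 10.03 and 10.02 at 2 h and rose by 1.58 ± 0.081 (limma, adjusted p = 1.1e-09), and Nlrp3, the inflammasome sensor, measured 5.63 and 5.79 at 0 h, then 7.39 and 6.97 at 2 h and rose by 1.47 ± 0.16. In contrast Clec7a, the beta-glucan receptor dectin-1, measured 11.14 and 11.12 at 0 h, then 10.58 and 10.43 at 2 h and fell by 0.63 ± 0.071, and Clec4n, which encodes dectin-2, fell by 0.72 ± 0.095. Of 29 Fc receptor and ITAM genes 5 rose and 6 fell, with Sirpa, the receptor of CD47, up by 0.94 ± 0.087 and Fcgr4 down, from 5.97 and 5.77 to 4.85 and 4.82. Of 32 complement and coagulation genes 8 rose and 5 fell, with Plat, the tissue plasminogen activator gene, up by 1.64 ± 0.092. Of 49 integrin, adhesion and protease genes 7 rose and 7 fell: Tspan33, a tetraspanin gene, rose by 1.65 ± 0.078, Itgb8, which pairs with the alpha v chain, by 1.23 ± 0.18, and Selplg, the gene of the P-selectin ligand, fell by 0.79 ± 0.085.

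Stress and growth genes were called in both directions, for comparison with 7.85% higher and 11.7% lower over all genes. In the unfolded protein and integrated stress response 7 of 34 rose and 6 fell. Sel1l, of the machinery that degrades misfolded proteins, measured 9.14 and 9.07 at 0 h, then 10.48 and 10.37 at 2 h and rose by 1.32 ± 0.076, Chac1 rose by 1.27 ± 0.17 and Ppp1r15a by 0.70 ± 0.084, whereas the chaperone genes Sdf2l1 and Dnajb9 fell by 0.47 ± 0.091 and 0.39 ± 0.080. Of 30 oxidative stress genes 6 rose and 7 fell, with Sod2 up by 0.55 ± 0.069, Txnrd1 up by 0.70 ± 0.11 and the catalase gene Cat at -0.60 ± 0.10, called lower. Of 40 genes of amino acid transport, arginine and polyamines 8 rose and 4 fell. Arg2, an arginase gene, measured 7.08 and 7.14 at 0 h, then 8.32 and 8.22 at 2 h and rose by 1.16 ± 0.088, and Slc7a1, a cationic amino acid transporter gene, rose by 1.05 ± 0.094. Of 31 sterol and fatty acid synthesis genes 4 rose and 5 fell, with Idi1 up by 0.58 ± 0.069 while Fads1 fell by 0.82 ± 0.15. Of 42 replication genes 5 rose and 3 fell: the cyclin gene Ccnd2 measured 10.13 and 10.29 at 0 h, then 11.39 and 11.44 at 2 h and rose by 1.198 ± 0.077, while Pcna changed by -0.21 ± 0.091 and Mcm2 by -0.12 ± 0.16, neither called. The shares of this list, 11.9% higher and 7.14% lower, and those of the sterol list, 12.9% and 16.1%, lie near those over all genes. In 60 genes of MYC and ribosome biogenesis 8 rose and 3 fell (13.3% and 5%), and of 48 ribosomal protein genes 0 rose and 2 fell.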
